A study of Homo sapiens with 9 samples.

Results

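A set of 8 genes of the long arm of chromosome 19 (19q), where DNA gains are known in OVCAR3 cells, were followed here at the RNA level: CCNE1, URI1, POP4, PLEKHF1, C19orf12, UQCRFS1, TSHZ3 and AKT2. They were chosen by name and position, though with earlier results of these data known, and all 8 were found among the 60660 genes of the count matrix. Of them, 7 had enough reads to be tested, together with 17794 genes in all, and TSHZ3 did not. OVCAR3 is a cell line of human high-grade serous ovarian carcinoma. It was cultured in 3 groups with 3 libraries each. The Control group received, according to the study's methods, a plasmid that carries LacZ, and its labels give no CTCFL treatment. The CTCFL-OE group was transiently transfected with 2 µg of a plasmid that encodes the canonical CTCFL protein (also called BORIS) and was collected 48 h later. The study's methods give the same transient transfection, dose and time for the LacZ plasmid. The CTCFL-KD group had CTCFL knocked down in an earlier experiment of the same authors, from which the RNA was taken, so that CTCFL silencing and the separate experiment cannot be told apart in any comparison with CTCFL-KD. No control library of that earlier experiment was analysed here. Each library stood for 1 biological replicate that pooled 3 technical replicates, and all were made as stranded, poly(A)-selected RNA libraries. A transient transfection reaches only part of the cells, so values of CTCFL-OE are averages over cells with and without the plasmid.

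CCNE1 encodes cyclin E1, which activates CDK2 and drives cells from G1 into S phase. It is the gene for which the 19q12 gain is best known in ovarian cancer, and amplification commonly takes its neighbours along. Extra copies of a gene usually raise its RNA, but neighbours on the same amplified DNA keep promoters of their own, so each can respond differently when a regulator is changed. CTCFL is a zinc finger protein of the germline that reads nearly the same DNA letters as the insulator protein CTCF and is switched on in some tumours.

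Along chromosome 19 (GRCh38, positions from GENCODE), UQCRFS1 came first, at chr19:29205320-29213151 on the minus strand, with its start at -598.8 kb relative to that of CCNE1. POP4 lay at chr19:29606283-29617237 and PLEKHF1 at chr19:29665459-29675477, both on the plus strand. C19orf12 lay at chr19:29698937-29715789 on the minus strand. CCNE1 itself occupied chr19:29811991-29824312 on the plus strand, and URI1 chr19:29923644-30016612, also on the plus strand, with its start 111.7 kb further on. TSHZ3, at chr19:31149979-31349436 on the minus strand, closed the segment, 1.54 Mb after the start of CCNE1. AKT2 stood apart, at chr19:40230317-40285536 on the minus strand, 10.47 Mb from CCNE1 in the 19q13 band, and belongs to a separate gain.

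Promoter windows of 300 bases, from 250 before to 50 after an annotated start (RefSeq, GRCh38.p14), were searched for the core letters AGGGGGC that CTCF and CTCFL share. All 8 genes had at least 1 window, 12 in all. The core stood on either strand in 5 of these 12 windows, which belong to 4 genes (AKT2, C19orf12, CCNE1 and TSHZ3), with 1 site of C19orf12 counted in 2 overlapping windows, and in 14.4% of the 35116 windows of the reference. The windows of AKT2 and C19orf12 are shown because both genes rose in CTCFL-KD and hold the core before an annotated RefSeq start, and a 30-base stretch of CCNE1 because this gene holds it and did not pass the test. Capitals mark the core, and each sequence is the gene's own strand.
AKT2 promoter, bases 140 to 1 before the start (chr19:40285346-40285485, minus strand): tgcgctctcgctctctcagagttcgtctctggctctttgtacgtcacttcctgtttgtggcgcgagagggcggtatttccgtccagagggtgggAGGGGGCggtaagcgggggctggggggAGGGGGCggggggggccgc
C19orf12 promoter, bases 140 to 1 before the start (chr19:29715057-29715196, minus strand): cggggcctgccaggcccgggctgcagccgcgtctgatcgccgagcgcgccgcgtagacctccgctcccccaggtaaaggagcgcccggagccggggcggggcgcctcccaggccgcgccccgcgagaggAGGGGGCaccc
CCNE1, bases 20 to 49 after the start (chr19:29812010-29812039, plus strand): gccagcgcggtgtAGGGGGCaggcgcggat

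The core began 46 and 19 bases before the AKT2 start of the window shown, 11 bases before that of C19orf12 and at base 33 after that of CCNE1. The second AKT2 window and 1 of the 3 windows of C19orf12 held no core, and both printed stretches lie inside the longer GENCODE spans of these genes. No such letters were found in the windows of UQCRFS1, POP4, PLEKHF1 and URI1. The letters TTTCGCGC, TTTGGCGC, TTTCCCGC and TTTGGCGG, which E2F factors bind, were in none of the 12 windows and in 3.35% of all windows. The SP1 core GGGCGG was present in 10 of the 12 windows and in 45.0% of all windows, and can overlap the other motifs. A match of letters is a description of the window and does not show binding.

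Total counts ranged from 14332622 to 24490080 per library. CTCFL had 6 to 10 counts in Control, 34 to 72 in CTCFL-OE and 0 to 1 in CTCFL-KD, in the direction of the labels in all 9 libraries. Few reads fell on CTCFL even in Control, so the size of its fall is uncertain. All 8 markers of an ovarian carcinoma line were present, and their summed level was 5100 to 5200 CPM (counts scaled to library size) in Control, 4310 to 4820 in CTCFL-OE and 8680 to 14500 in CTCFL-KD, where KRT8, KRT18, MUC16, EPCAM and MSLN rose and KRT7 (log2 -1.12, adjusted p = 0.0164) and WT1 (log2 -0.63, adjusted p = 0.0272) fell. Mitochondrial genes took 6.16 to 6.52% of the counts in Control, 7.40 to 14.9% in CTCFL-OE and 7.80 to 11.8% in CTCFL-KD. CTCFL-KD replicate 1 had the lowest total and a TMM scaling factor of 0.775, against 0.945 to 1.09 in the other 8 libraries. Its deviations from the group mean fell with transcript length (Spearman rho = -0.615 across genes, which are not independent), against 0.596 and 0.573 in replicates 2 and 3. Deviations within a group sum to 0, so a trend in 1 library tends to give the others the opposite sign. Control showed the same pattern at a smaller size (-0.363 in replicate 1, 0.138 and 0.242 in the others), and CTCFL-OE ran from -0.104 to 0.106. This library was the highest of the 3 CTCFL-KD libraries for 6 of the 7 tested genes, so the CTCFL-KD vs Control values of the 7 genes, and the counts by position and by partner list, are also given without it. All other genes named below as changed in CTCFL-KD vs Control were still past the threshold, in the same direction, in the fit without this library. The 6 fibroblast markers summed to 26.7 to 32.8 CPM in Control, 23.9 to 43.5 in CTCFL-OE and 35.7 to 40.8 in CTCFL-KD. Within them COL1A2, a collagen chain, had no count in Control and 13.5 to 14.2 CPM in CTCFL-KD, whereas COL1A1 went from 29.7 to 23.2 CPM (log2 -0.36, adjusted p = 0.221), and the other 4 were too low to test. The 3 leukocyte markers summed to 0.20 to 0.455 CPM in Control, 0.273 to 0.92 in CTCFL-OE and 1.60 to 3.33 in CTCFL-KD, where CD14 rose (log2 3.84, adjusted p = 0.000571) and PTPRC and CD3E were too low to test. The 3 endothelial markers summed to 6.78 to 7.05 CPM in Control, 8.22 to 10.2 in CTCFL-OE and 4.48 to 5.28 in CTCFL-KD, where PECAM1 fell (log2 -2.56, adjusted p = 0.000511), and in CTCFL-OE VWF rose (log2 0.71, adjusted p = 0.0951, or 0.13 with the replicate block). PECAM1 went the other way there, from 1.80 to 0.882 CPM (log2 -1.01, adjusted p = 0.139, or 0.0448 without CTCFL-KD replicate 1). The part of these differences in the values below was not tested, and in bulk RNA a change in the share of cells cannot be told apart from a change in RNA per cell.

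The first question was how strongly each gene of the segment is expressed before CTCFL is altered. To compare genes, levels were set per length, in RPKM, reads scaled to exon length in kilobases and to library size. In Control, CCNE1 was at 48.9 ± 2.02 RPKM (SD, n = 3) and URI1 at 46.6 ± 0.916, and these neighbours in the order overlapped in range. POP4 followed at 35.3 ± 0.563 RPKM, then AKT2 at 19.02 ± 0.559, UQCRFS1 at 17.7 ± 0.544, C19orf12 at 15.4 ± 0.661 and PLEKHF1 at 13.3 ± 0.309. From URI1 downwards no neighbours in the order overlapped in range, though AKT2 (lowest library 18.4) and UQCRFS1 (highest library 18.3) nearly met. The level of CCNE1 was above that of 95.3% of the 13697 coding genes tested, and that of PLEKHF1 above 79.3%. The median of these coding genes was 3.84 RPKM, and that of the 988 coding genes tested on chromosome 19 was 2.73 RPKM. All 7 were thus in the upper part of the distribution in Control.

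**Figure D1:**
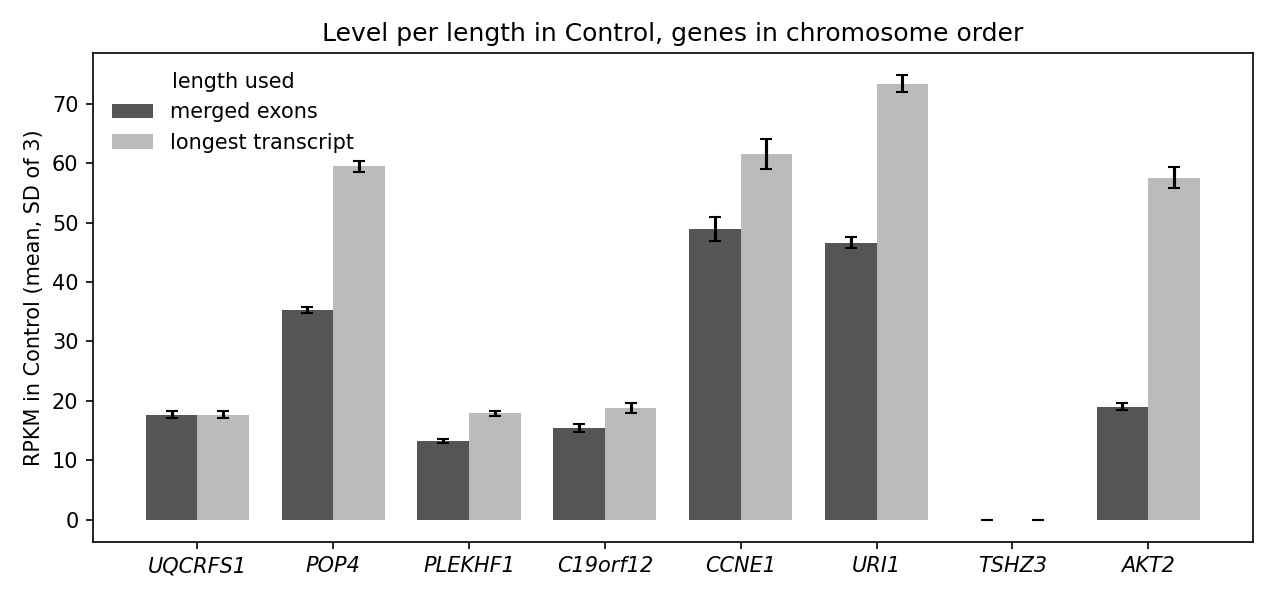
Mean RPKM in the 3 Control libraries (bars, with SD) for the 8 genes in chromosome order, computed with the merged exons (dark) or the longest transcript (light). CCNE1 and URI1 are highest with merged exons, TSHZ3 is at 0 on this scale, and AKT2 moves from 19.02 to 57.6 RPKM with the length used.

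The order depended on the length given to a gene. With the longest annotated transcript in place of all exons merged, URI1 was highest (73.4 RPKM), followed by CCNE1 (61.6), POP4 (59.5) and AKT2 (57.6), while C19orf12 (18.8), PLEKHF1 (17.9) and UQCRFS1 (17.7) were close together. CCNE1, URI1 and POP4 were above C19orf12, PLEKHF1 and UQCRFS1 under both lengths. TSHZ3, a zinc finger transcription factor of development, had 1 count in Control replicate 1, 1 count in CTCFL-KD replicate 2 and none in the other 7 libraries. A count of 3, the limit that a count of 0 allows, was worth 0.116 to 0.270 CPM in these libraries, so TSHZ3 was not detectable at this depth, and no fold change is given. In the matrix, 37 annotated genes lie from UQCRFS1 to TSHZ3. Of these 24 had at most 3 counts in every library and 9 were tested, namely the 6 coding genes already named and 3 noncoding genes or pseudogenes.

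CCNE1, the gene that gives the segment its name, did not pass the test in either altered group. Its level was 126, 118 and 117 CPM in Control replicates 1 to 3, 113, 116 and 115 CPM in CTCFL-OE, and 153, 107 and 97.5 CPM in CTCFL-KD. CTCFL-KD held both the highest and the 2 lowest of the 9 values, with replicate 1 high and the other two low. The log2 fold change was -0.07 (SE 0.19, 95% interval -0.49 to 0.35, adjusted p = 0.875, edgeR quasi-likelihood test) in CTCFL-OE and -0.02 (SE 0.19, interval -0.43 to 0.40, adjusted p = 0.953) in CTCFL-KD. Without CTCFL-KD replicate 1 the second value was -0.23 (adjusted p = 0.0818), and with the length trend removed it was -0.22 (adjusted p = 0.185). The intervals run from 0.714-fold to 1.27-fold in CTCFL-OE and from 0.74-fold to 1.32-fold in CTCFL-KD.

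URI1 encodes a prefoldin-like chaperone that works with the R2TP complex in assembling RNA polymerases. It was at 260, 249.8 and 253 CPM in Control, 274, 213 and 224 CPM in CTCFL-OE, and 380.2, 340.1 and 336 CPM in CTCFL-KD. All CTCFL-KD libraries were above all others, while CTCFL-OE spread around Control. The CTCFL-KD difference was 0.47 on the log2 scale (SE 0.18, interval 0.09 to 0.86) and missed the threshold of 0.05 (adjusted p = 0.0529, edgeR). Against CTCFL-OE the difference was 0.57 (SE 0.18) and passed it (adjusted p = 0.0328). Both calls turned on the settings: without CTCFL-KD replicate 1 the first also passed (0.42, adjusted p = 0.0204), as it did without CTCFL-OE replicate 1 (adjusted p = 0.0307), while the second was lost without any 1 of 7 libraries (adjusted p from 0.0571 to 0.134). A pseudogene on the opposite strand inside URI1, RPL9P32, had 139 counts over all libraries, and whether the counting used strand is not given in the sources used here.

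**Figure D2:**
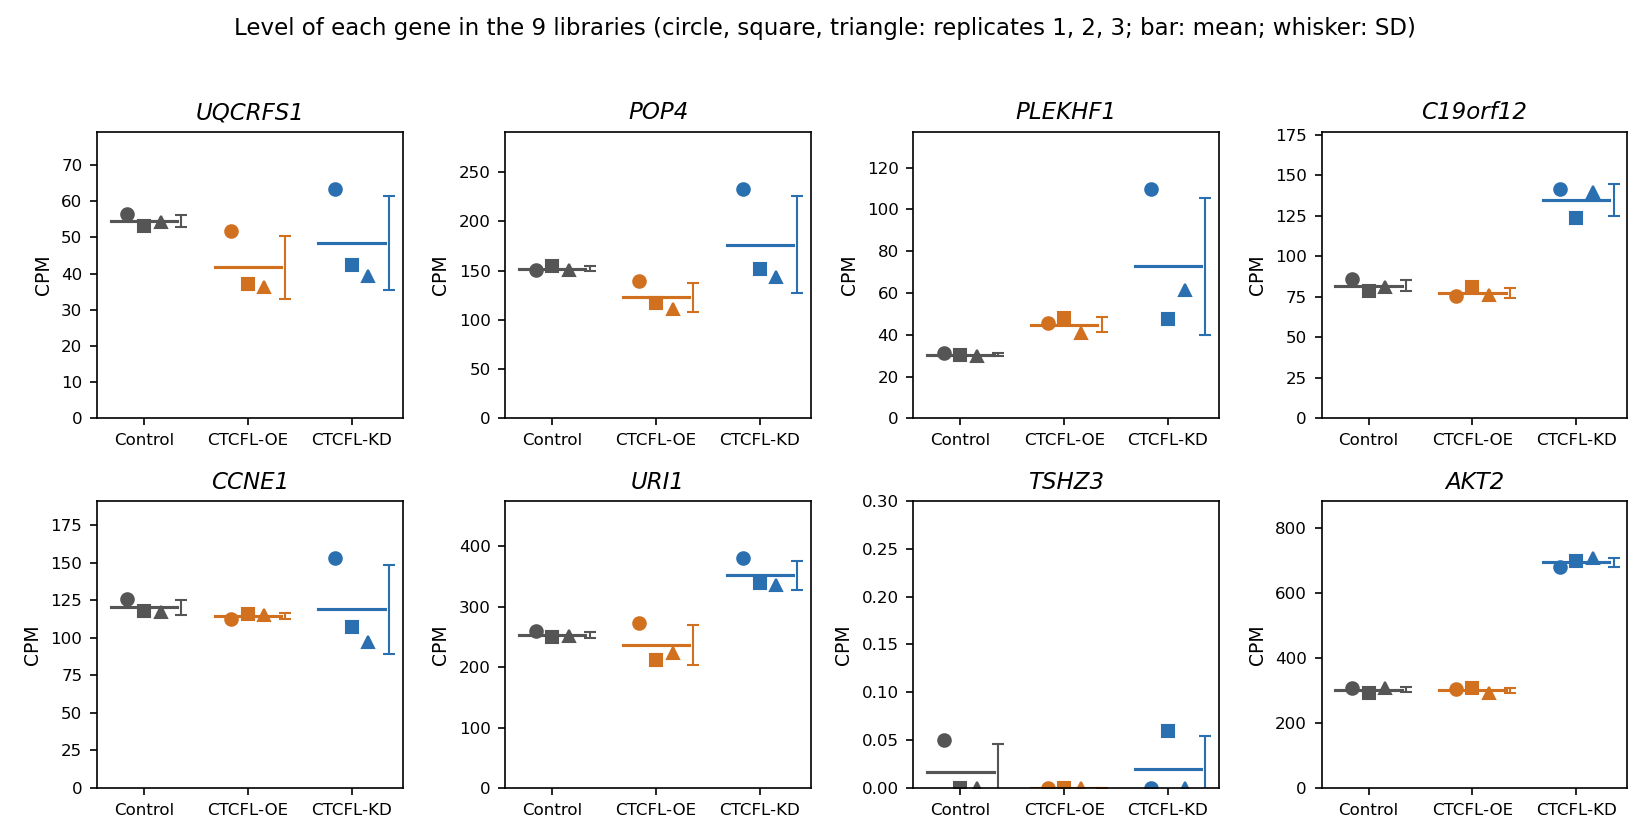
CPM of each of the 8 genes in the 9 libraries, by group. Points are libraries (circle, square and triangle for replicates 1, 2 and 3), horizontal bars are group means and whiskers are the SD of 3. AKT2 and C19orf12 show CTCFL-KD libraries well above all others, and replicate 1 of CTCFL-KD is far above replicates 2 and 3 for POP4, PLEKHF1, CCNE1 and UQCRFS1.

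PLEKHF1, a phosphoinositide-binding protein of lysosomes and endosomes, was at 31.1, 30.4 and 29.7 CPM in Control, 45.7, 47.8 and 40.9 CPM in CTCFL-OE, and 109.8, 47.5 and 61.3 CPM in CTCFL-KD. Every library of both altered groups was above every Control library. In CTCFL-KD it rose 2.39-fold (log2 1.26, SE 0.27, interval 0.66 to 1.85, adjusted p = 0.00431). Much of that size came from replicate 1, without which the log2 value was 0.84, still past the threshold (adjusted p = 0.000401) but under 2-fold. In CTCFL-OE the difference was 0.56 (SE 0.27, interval -0.03 to 1.14) and did not pass (adjusted p = 0.302), but did with only the 2 groups compared (adjusted p = 0.0158) and without CTCFL-KD replicate 1 (adjusted p = 0.0152), a library of neither group, whose removal changes the shared spread and the genes kept (18393 tested) and left the log2 value at 0.56. The direct comparison of CTCFL-KD with CTCFL-OE gave 0.70 (SE 0.27, adjusted p = 0.0734), with 0.28 without CTCFL-KD replicate 1 (adjusted p = 0.1) and 0.90 without CTCFL-KD replicate 2, where it passed (adjusted p = 0.0207).

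C19orf12 encodes a mitochondrial membrane protein whose mutations cause a neurodegeneration with brain iron accumulation. Its level was 85.8, 78.8 and 81.2 CPM in Control, 75.5, 81.2 and 76.1 CPM in CTCFL-OE, and 142, 124 and 139.9 CPM in CTCFL-KD. The CTCFL-KD libraries did not overlap with either other group, which overlapped with each other. It rose 1.65-fold in CTCFL-KD (log2 0.72, SE 0.15, interval 0.39 to 1.05, adjusted p = 0.0038) and differed from CTCFL-OE by 0.80 (SE 0.15, adjusted p = 0.00312). With CTCFL-KD replicate 1 left out the first value was 0.69 (adjusted p = 0.000425). In CTCFL-OE the difference was -0.08 (SE 0.15, adjusted p = 0.815).

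POP4, a protein subunit of RNase P and RNase MRP that process tRNA and rRNA precursors, was at 151, 155 and 150.4 CPM in Control, 139, 117 and 112 CPM in CTCFL-OE, and 233, 152 and 144 CPM in CTCFL-KD. All CTCFL-OE libraries were below all Control libraries, whereas CTCFL-KD had 1 library far above and 2 near Control. Neither difference passed the test: -0.31 (SE 0.21, adjusted p = 0.46) in CTCFL-OE and 0.21 (SE 0.21, adjusted p = 0.445) in CTCFL-KD. Without CTCFL-KD replicate 1 the latter was -0.04 (adjusted p = 0.815), and the former reached an adjusted p of 0.0723.

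UQCRFS1, the Rieske iron-sulfur subunit of respiratory complex III, was at 56.5, 53.15 and 54.3 CPM in Control, 51.9, 37.2 and 36.4 CPM in CTCFL-OE, and 63.4, 42.4 and 39.5 CPM in CTCFL-KD. In each altered group replicate 1 was near or above Control and the other two were below it. The differences were -0.38 (SE 0.22, adjusted p = 0.38) in CTCFL-OE and -0.18 (SE 0.22, adjusted p = 0.548) in CTCFL-KD. When CTCFL-KD replicate 1 was left out, both passed their thresholds, at -0.38 (adjusted p = 0.0739) in CTCFL-OE and -0.41 (adjusted p = 0.0423) in CTCFL-KD. These values are uncertain for another reason: a processed copy on chromosome 22, UQCRFS1P1, held 11.4 to 20.8% as many counts as UQCRFS1, and the counting could split reads between them.

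AKT2, a serine/threonine kinase of the PI3K pathway that promotes survival and glucose uptake, was at 306, 292 and 309 CPM in Control, 304, 306 and 292 CPM in CTCFL-OE, and 679, 698 and 706 CPM in CTCFL-KD. The Control and CTCFL-OE libraries shared one range, and the CTCFL-KD libraries formed another with an SD of 13.7 CPM. AKT2 rose 2.30-fold in CTCFL-KD (log2 1.20, SE 0.17, interval 0.83 to 1.57, adjusted p = 0.000339) and differed as much from CTCFL-OE (1.21, SE 0.17, adjusted p = 0.000449). The log2 value in CTCFL-KD was 1.22 without replicate 1 (adjusted p = 1.59e-05), and AKT2 was the only tested gene of the 7 in which this replicate was not the highest of its group. In CTCFL-OE the difference was -0.01 (SE 0.16, interval -0.37 to 0.36, adjusted p = 0.99). A lncRNA (ENSG00000205041) and MIR641 overlap AKT2 on the same strand, with 174 and 48 counts over all libraries.

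**Figure D3:**
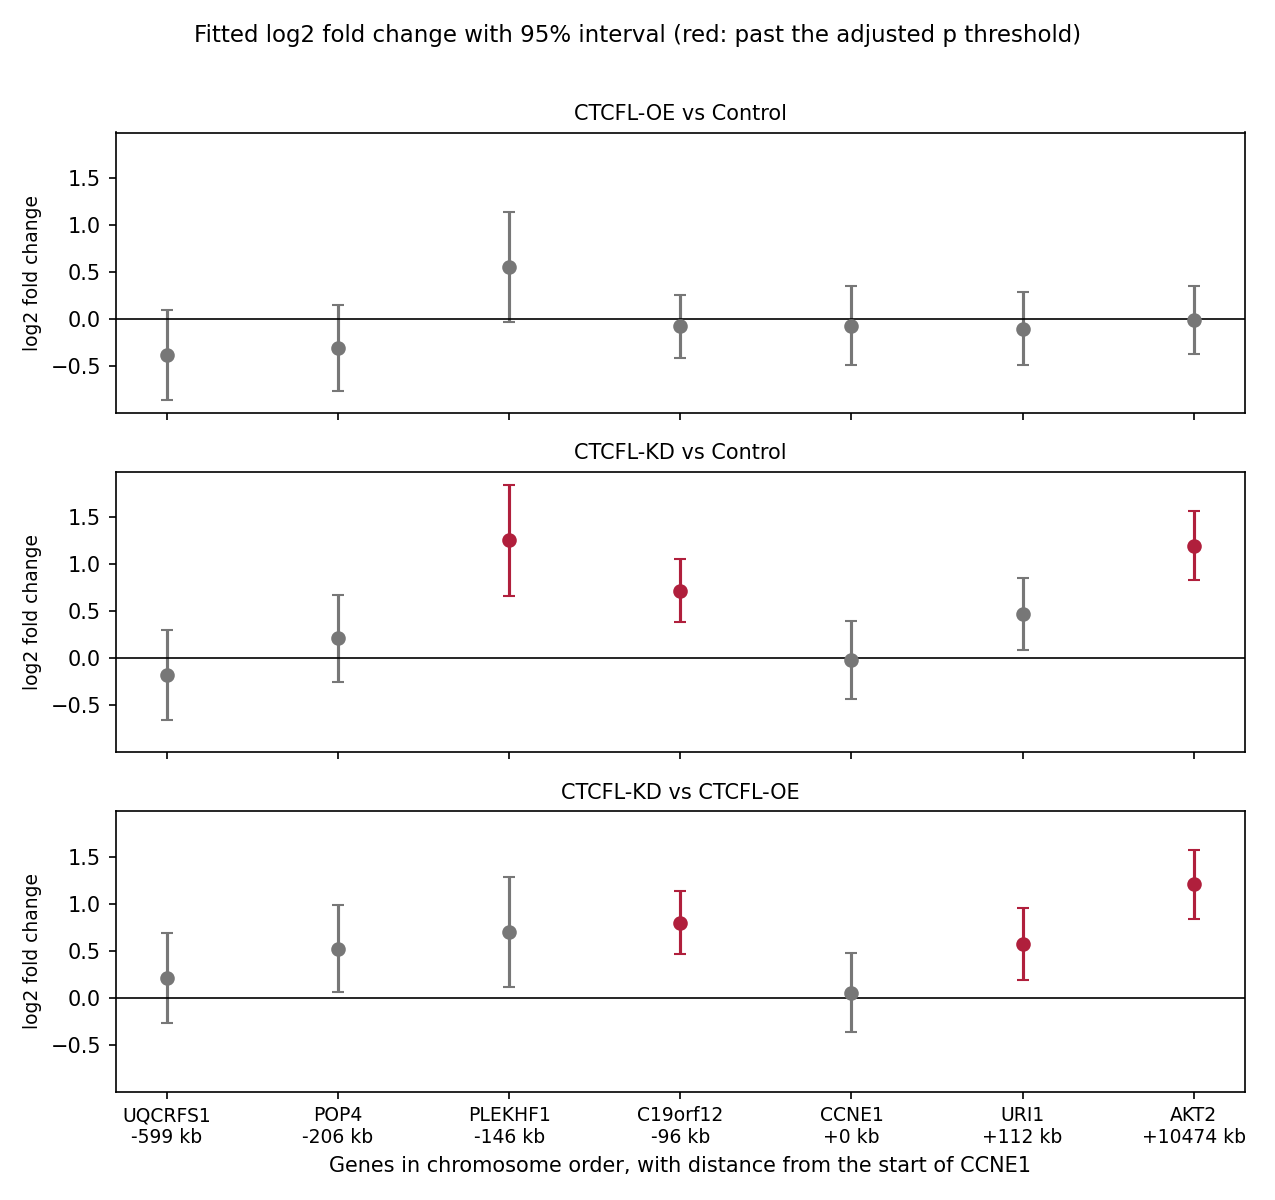
Fitted log2 fold change (points) with 95% interval (bars) for the 7 tested genes in chromosome order, with the distance from the start of CCNE1, in each of the 3 comparisons; red marks genes past the adjusted p threshold. No gene is red for CTCFL-OE vs Control, and PLEKHF1, C19orf12 and AKT2 are red for CTCFL-KD vs Control with CCNE1 between them at -0.02.

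Over the whole set, 0 of the 7 tested genes passed the test in CTCFL-OE (adjusted p under 0.1 in edgeR's quasi-likelihood test). The study used this threshold together with a 2-fold change. Of all tested genes, 1.99% rose and 1.16% fell, and 2.07% also passed 2-fold. DESeq2 also called none of them, and none had an unadjusted p under 0.05, against 3157 of all tested genes. In the fit without CTCFL-KD replicate 1, 3 of the 7 were called in CTCFL-OE, PLEKHF1 as higher and POP4 and UQCRFS1 as lower, where 14.0% of all tested genes were higher and 13.4% lower. The groups did not overlap for 4 of the 7 genes (UQCRFS1, POP4, PLEKHF1 and CCNE1), while this held for 37.1% of all tested genes. In CTCFL-KD (adjusted p under 0.05), 3 of the 7 rose and none fell, where 21.4% of all tested genes rose and 16.8% fell. Of the 3, PLEKHF1 and AKT2 passed 2-fold, a size that 23.2% of all tested genes reached with the test. Without CTCFL-KD replicate 1, 4 of the 7 rose (URI1 joined) and 1 fell (UQCRFS1), where 26.2% of all tested genes rose and 23.7% fell. The groups did not overlap for 4 of the 7 genes, against 56.3% of all. Between CTCFL-KD and CTCFL-OE, 3 of the 7 (AKT2, C19orf12 and URI1) were higher in CTCFL-KD and none lower, where 15.3% of all tested genes were higher and 11.5% lower. AKT2 was the 1 gene past 2-fold there, against 17.0% of all. POP4 (log2 0.52, SE 0.21, adjusted p = 0.0863), UQCRFS1 (0.21, adjusted p = 0.501) and CCNE1 (0.05, adjusted p = 0.856) did not pass in edgeR, nor did PLEKHF1. Here the groups did not overlap for 4 of the 7 genes, against 39.8% of all. The comparisons share libraries, so these counts are not independent of each other.

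The fitted values differed along the segment, but differences between genes were not tested. In CTCFL-KD, with all libraries kept, the genes that passed all rose, and the negative values of UQCRFS1 and CCNE1 did not pass. Reading from the centromere outwards, the log2 fold changes in CTCFL-KD were -0.18 for UQCRFS1, 0.21 for POP4, 1.26 for PLEKHF1, 0.72 for C19orf12, -0.02 for CCNE1, 0.47 for URI1 and 1.20 for AKT2. PLEKHF1 and C19orf12, which passed the test, are neighbours among the tested coding genes before CCNE1. POP4, the tested coding gene just before PLEKHF1, did not pass. In CTCFL-OE the values were -0.38, -0.31, 0.56, -0.08, -0.07, -0.10 and -0.01 in the same order.

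Ratios within a library do not depend on how libraries are scaled, but they keep any length trend and move with CCNE1 itself. The log2 ratio of AKT2 to CCNE1 counts was 1.28 to 1.40 in Control, 1.34 to 1.44 in CTCFL-OE and 2.15 to 2.86 in CTCFL-KD. For PLEKHF1 it was -2.02 to -1.96 in Control, -1.50 to -1.28 in CTCFL-OE and -1.17 to -0.48 in CTCFL-KD, 3 ranges that did not overlap. C19orf12 was below CCNE1 in Control (-0.58 to -0.53) and in CTCFL-OE (-0.60 to -0.52), while in CTCFL-KD it reached -0.11 to 0.52. URI1 moved from 1.04 to 1.11 in Control to 1.31 to 1.79 in CTCFL-KD, with CTCFL-OE at 0.87 to 1.28. POP4 was at 0.26 to 0.39 in Control, -0.05 to 0.31 in CTCFL-OE and 0.51 to 0.61 in CTCFL-KD. In CTCFL-KD replicates 2 and 3 POP4 itself was at 151.9 and 143.8 CPM, against 150.4 to 154.8 in Control. CCNE1 was at 106.9 and 97.45 CPM there, against 116.9 to 126.1 in Control. UQCRFS1 was at -1.16 to -1.11 in Control, -1.66 to -1.12 in CTCFL-OE and -1.33 to -1.27 in CTCFL-KD. For POP4 and UQCRFS1, the high values of CTCFL-KD replicate 1 were thus shared with CCNE1.

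**Figure D4:**
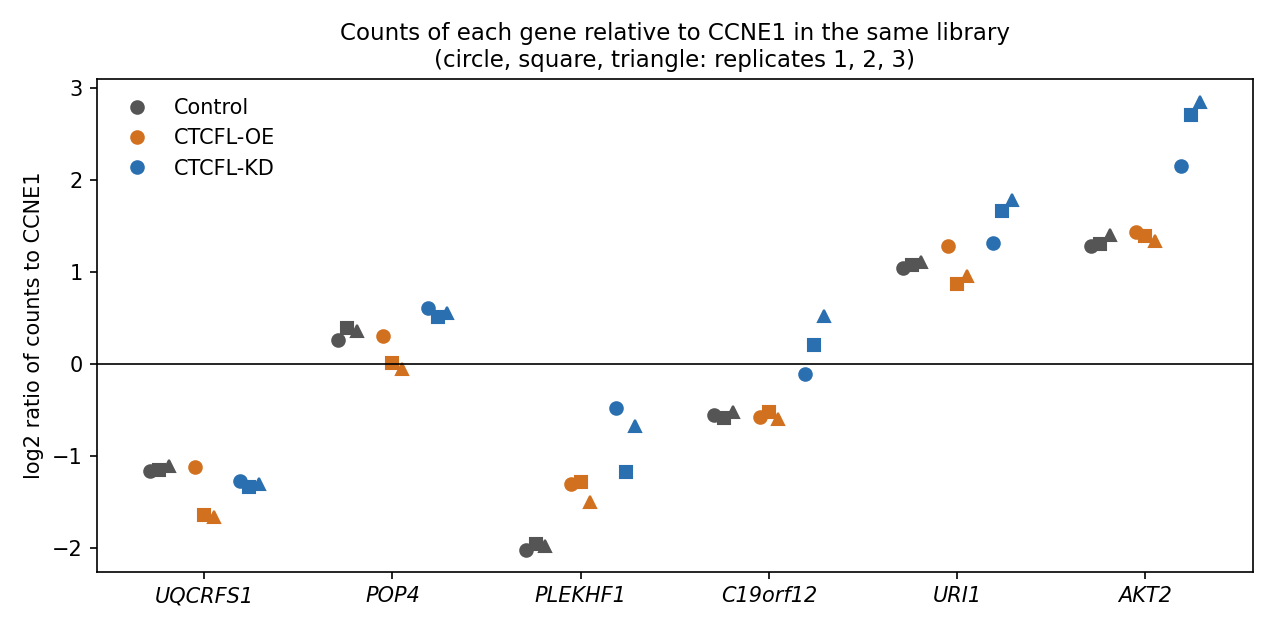
Log2 ratio of each gene's counts to those of CCNE1 in the same library, coloured by group, with circle, square and triangle for replicates 1, 2 and 3. CTCFL-KD lies above Control in all 3 libraries for POP4, PLEKHF1, C19orf12, URI1 and AKT2, and below it for UQCRFS1.

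The genes whose pattern over the 9 libraries was most like that of CCNE1 were not on chromosome 19. Among 15364 genes with a mean of at least 1 CPM, the 5 with the highest Pearson correlation in log2 CPM were MCRS1 (0.989, chromosome 12), ZBTB8OS (0.982, chromosome 1), OTUB1 (0.978, chromosome 11), MRPL20 (0.972, chromosome 1) and NUDC (0.968, chromosome 1). The neighbours followed far behind. UQCRFS1 ranked 1758 (0.689), POP4 1992 (0.656), PLEKHF1 4211 (0.362), URI1 6060 (0.15), C19orf12 6964 (0.060) and AKT2 7976 (-0.045). These are descriptions over 9 points that share libraries and depth, and CTCFL-KD replicate 1 is the highest point for CCNE1.

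The surroundings of both gains were then compared by position. Of the 9 tested genes from UQCRFS1 to TSHZ3, 2 rose in CTCFL-KD (PLEKHF1 and C19orf12) and 1 fell, with a median log2 fold change of 0.21. The one that fell was ENSG00000286538, a lncRNA that starts 29.8 kb after the start of CCNE1, from 2.47 ± 0.642 to 1.10 ± 0.400 CPM (SD, n = 3; log2 -1.21, SE 0.34, adjusted p = 0.0167). Of the 18 tested genes that lie at least partly within 250 kb of either end of AKT2, 13 rose in CTCFL-KD and none fell, with a median of 1.18. Distances are given between gene starts, so they can exceed 250 kb. The median over the 1149 tested genes of chromosome 19 was 0.42, of which 33.0% rose and 8.53% fell, and over all tested genes it was 0.08. With CTCFL-KD replicate 1 left out, 14 of 20 tested genes around AKT2 rose and the median was 1.04, against 0.18 for chromosome 19 (35.2% rose, 17.8% fell) and 0.01 for all genes. The segment around CCNE1 then had 3 of 9 higher and 2 lower, with a median of -0.04. In CTCFL-OE no tested gene of either region passed the test. In the fit without CTCFL-KD replicate 1, 1 of 9 was higher and 2 were lower around CCNE1, and 7 of 20 were higher and 2 lower around AKT2, where 14.0% of all tested genes were higher and 13.4% lower. DESeq2 called 0 of the CCNE1 segment and 2 of 20 around AKT2 in CTCFL-OE, both higher, beside 4.85% of all tested genes and 5.67% of those of chromosome 19. With the replicate block 2 of 18 around AKT2 were higher, beside 1.49% of all.

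PLD3, a lysosomal nuclease of the phospholipase D family whose start lies 62.9 kb from that of AKT2, and ZNF546, a zinc finger gene at -301.4 kb, changed most around AKT2; both are named here because of their values. PLD3 went from 324 CPM (320.1 to 332) in Control to 3822 CPM (2717 to 5824) in CTCFL-KD, which is 3.56 on the log2 scale (SE 0.36, adjusted p = 4.63e-05). ZNF546 went from 2.97 CPM (2.48 to 3.54) to 20.7 CPM (18.2 to 24.3), or 2.81 on the log2 scale (SE 0.21, adjusted p = 6.94e-06). PSMC4, a proteasome ATPase at the edge of the window, rose from 397 to 811 CPM (log2 1.03, adjusted p = 0.01). AKT2 itself was at 1.20, beside the median of 1.18 for its surroundings.

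**Figure D5:**
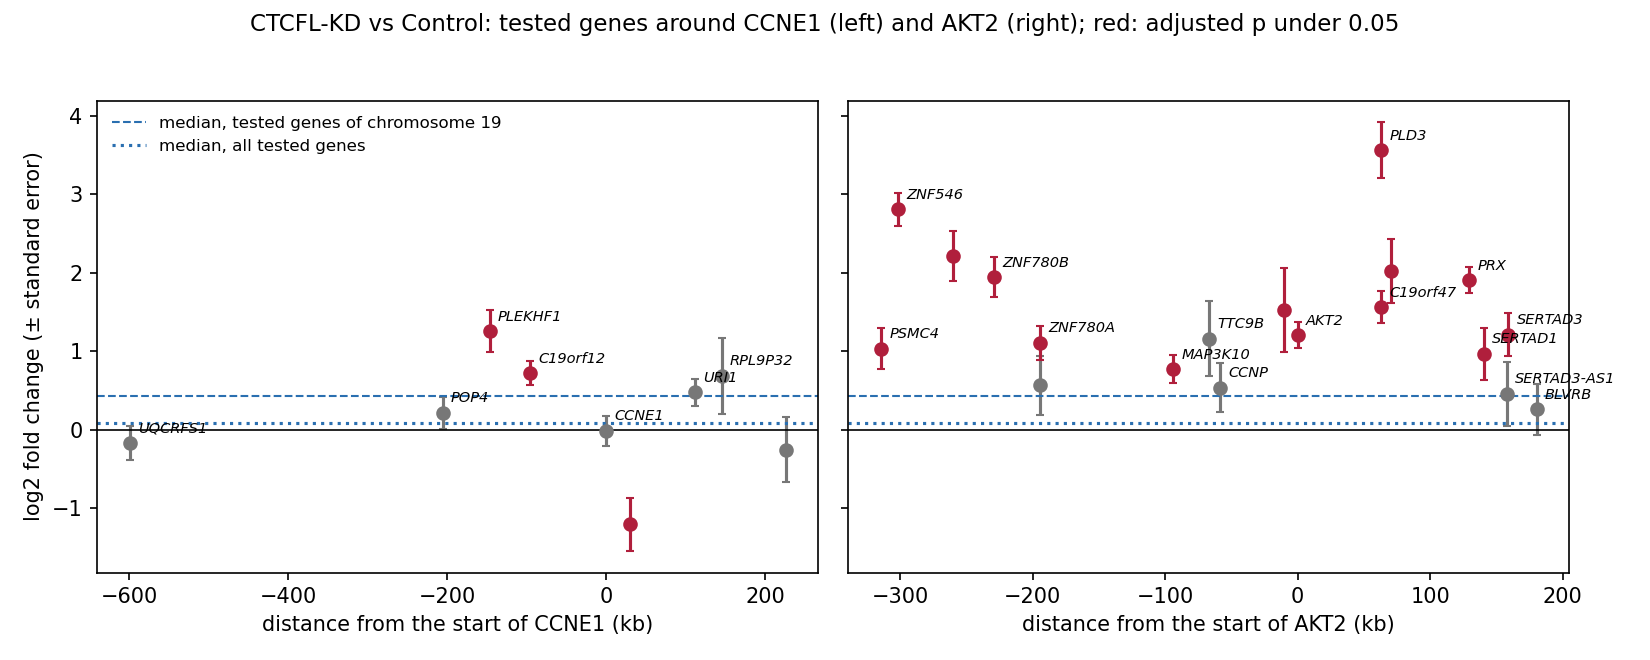
Log2 fold change (± standard error) in CTCFL-KD vs Control of the tested genes around CCNE1 (left) and AKT2 (right), against the distance of their starts; red marks an adjusted p under 0.05, and points without a name are genes known by identifier only. Lines give the medians of chromosome 19 (0.42) and of all tested genes (0.08); on the right 13 of 18 neighbours and AKT2 are red, all above 0.

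The partners of each gene were looked at next, beginning with cyclin E1. Of 21 tested genes of the G1/S cyclins, their kinases and inhibitors, 5 (23.8%) fell in CTCFL-KD and none rose. Of all tested genes, 16.8% fell and 21.4% rose. The median of the set was -0.37. CCND1, cyclin D1, fell from 483 CPM (460.2 to 502) in Control to 99.6 (90.9 to 111) in CTCFL-KD (log2 -2.28, SE 0.18, adjusted p = 9.27e-06), and in CTCFL-OE it fell to 287 CPM (275 to 304; log2 -0.75, adjusted p = 0.0633). CCNE2, the paralog that shares the role of CCNE1, fell from 12.2 to 5.59 CPM (log2 -1.11, SE 0.25, adjusted p = 0.00525). CCNA2 and CCND3, the cyclins of S phase and of G1, fell as well, with log2 fold changes of -0.99 (adjusted p = 0.00279) and -0.87 (adjusted p = 0.00326). CDK2, the kinase that cyclin E1 activates, was the fifth, with a fall from 48.7 to 32.3 CPM (log2 -0.59, adjusted p = 0.0103). In CTCFL-OE 2 of the 21 (9.52%) fell, where 1.16% of all tested genes did, and 7 (33.3%) were lower and 1 (E2F1) higher without CTCFL-KD replicate 1, where 13.4% of all were lower and 14.0% higher. CDKN1A, the p21 inhibitor of CDK2, was the gene that fell there beside CCND1, from 3.96 to 2.11 CPM (log2 -0.90, adjusted p = 0.0925). All 4 tested cyclins of the set thus fell in CTCFL-KD, whereas CCNE1 did not pass the test. With CTCFL-KD replicate 1 left out, 8 of the 21 (38.1%) fell and 1 rose, with a median of -0.17, where 23.7% of all tested genes fell and 26.2% rose.

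Of the 18 tested genes of the PI3K-AKT set around AKT2, 4 (22.2%) fell in CTCFL-KD and none rose, with a median of -0.46. Of all tested genes, 16.8% fell and 21.4% rose. The paralog of AKT2, AKT1, was among the 4 that fell. AKT1 fell from 112 CPM (106 to 116) to 81.6 (76.6 to 89.9), a log2 fold change of -0.46 (SE 0.15, adjusted p = 0.035, or 0.0513 with the replicate number as a block). INPP4B, a phosphatase that removes a PI3K product, fell in both groups, with log2 fold changes of -2.13 in CTCFL-KD (adjusted p = 7.51e-05) and -1.40 in CTCFL-OE (adjusted p = 0.017). FOXO1, a transcription factor that AKT kinases inhibit, also fell in both, at -0.86 (adjusted p = 0.00524) and -0.92 (adjusted p = 0.0494). PIK3CB, a catalytic subunit of PI3K, fell in CTCFL-KD (log2 -0.78, adjusted p = 0.0256). The median of this set was -0.27 in CTCFL-OE. With CTCFL-KD replicate 1 left out, 2 genes were higher and 7 (38.9%) lower in CTCFL-KD, with a median of -0.26. Of all tested genes, 26.2% were higher and 23.7% lower in that fit. In CTCFL-OE 2 (11.1%) fell, where 1.16% of all tested genes did, and 6 (33.3%) were lower in that fit, where 13.4% of all were.

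Among partners of the remaining genes, 3 lists of 8 or 9 genes each, 1 gene per list rose and 0 to 3 per list fell in CTCFL-KD, beside 21.4% of all tested genes that rose and 16.8% that fell. Of 9 genes that act with URI1, PIH1D1 rose in CTCFL-KD (log2 0.78, adjusted p = 0.0499, or 0.0573 with the replicate block), and RPAP3 (log2 -1.01, adjusted p = 0.00107) and POLR2E (log2 -0.57, adjusted p = 0.037) fell. PIH1D1 and RPAP3 are both subunits of the R2TP chaperone, and POLR2E is a subunit that all nuclear RNA polymerases share. Of 9 other protein subunits of RNase P and RNase MRP, RPP25 rose (log2 1.18, adjusted p = 0.00873), while POP1 (log2 -1.19, adjusted p = 0.000226), RPP40 (log2 -0.85, adjusted p = 0.0143) and RPP30 (log2 -0.64, adjusted p = 0.0309) fell. Of 8 other subunits of complex III, UQCRQ rose (log2 1.08, adjusted p = 0.0334), with 110 to 332 CPM in CTCFL-KD against 88.2 to 91.1 in Control, and none fell. UQCRQ was at 0.39 and PIH1D1 at 0.29 on the log2 scale without CTCFL-KD replicate 1 (adjusted p = 0.00979 and 0.0373). That fit had 4 lower and 1 higher among the partners of URI1, 4 lower and 1 higher among those of POP4, and 1 lower (UQCRC2, -0.33, adjusted p = 0.0424) and 1 higher in complex III, where 23.7% of all tested genes were lower and 26.2% higher. In CTCFL-OE none of these 26 genes passed the test, and 4 of them (PDRG1, RPAP3, RPP30 and RPP40) were lower in the fit without CTCFL-KD replicate 1, where 13.4% of all tested genes were. Medians in CTCFL-KD were 0.32 for the partners of URI1, 0.07 for those of POP4 and 0.61 for those of UQCRFS1. They were -0.32, -0.34 and -0.01 without CTCFL-KD replicate 1. With all libraries kept, the median for POP4 was also negative with the length trend removed (-0.10) and just below 0 with the replicate block (-0.0017). The paralogs of PLEKHF1 and TSHZ3 did not pass the test in CTCFL-KD: PLEKHF2 was at -0.32 (adjusted p = 0.292), TSHZ1 at 0.58 (adjusted p = 0.0774) and TSHZ2 at -0.11 (adjusted p = 0.75). TSHZ1 passed at 0.78 without CTCFL-KD replicate 1 (adjusted p = 0.00403). Unlike TSHZ3, both were expressed, with 8.80 CPM of TSHZ1 and 6.90 CPM of TSHZ2 in Control.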

How the data were processed

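RNA-seq of 9 OVCAR3 libraries was analysed from whole-number counts per gene, deposited by the authors without normalization. Per the study's methods, reads were trimmed with Trimmomatic, aligned to GRCh38 with STAR and counted with featureCounts; the submitters' processing notes also name kallisto. The annotation release and the strand setting of the counting are not given in the sources used here. Each of the 9 library files equalled its column of the deposited matrix. Gene names, positions and lengths came from GENCODE release 44 (60419 of 60660 genes named), so lengths are approximate.

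Genes kept by filterByExpr were tested with edgeR 4.0.16 (R 4.3.3; TMM scaling, robust quasi-likelihood test, group as the only term, all 9 libraries) with Benjamini-Hochberg adjustment over 17794 genes. Calls used the study's thresholds for the adjusted p, 0.1 for CTCFL-OE and 0.05 for CTCFL-KD, the latter also for CTCFL-KD vs CTCFL-OE. The study also required a change beyond 2-fold, which was not part of a call here. CPM used scaled library sizes. The script was tested on simulated data. Alternatives were DESeq2 1.42.0, other scalings and filters, a replicate block, a length trend removed, the 2 groups alone and each library left out. With 3 libraries a group, only differences larger than the shared spread are detectable.

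Deviations of same-numbered CTCFL-KD and Control libraries were correlated (r = 0.385, 0.221 and 0.267 over 11618 genes). The groups came from separate experiments. Of unlike-numbered pairs, CTCFL-KD replicate 2 with Control replicate 3 (0.155) and replicate 3 with Control replicate 2 (0.0851) were positive too. The other unlike-numbered pairs were negative (-0.383 to -0.161). Replicate 1 of both groups showed a negative length trend, and whether the libraries were paired was not tested. Same-numbered CTCFL-OE and Control libraries gave -0.0458, 0.221 and -0.0485.

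The genes and lists were chosen with earlier results of these data known. All 8 genes are named, with values in every comparison for the 7 tested. Of the other lists, called genes of the segment with at least 1 CPM, up to 4 called genes of each function list with the largest differences, and paralogs are named. PLD3, ZNF546, PSMC4 and CDK2 were named after their values were seen. A gene of the function lists is not reported here and was left out of their counts.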

Additional observations from a re-analysis of the deposited data

How the results depend on the processing

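The calls of AKT2, C19orf12 and PLEKHF1 in CTCFL-KD vs Control held in all 19 alternative settings, as did those of AKT2 and C19orf12 in CTCFL-KD vs CTCFL-OE. URI1 was past the threshold in CTCFL-KD vs Control in 9 of the 19 (adjusted p from 0.019 to 0.288) and lost its call against CTCFL-OE in 9. With the replicate block, 0, 3 and 3 of the 8 genes were called in the 3 comparisons, as without it, and the block changed no call among them. Among the partner genes named, the block ended the calls of AKT1 and PIH1D1 in CTCFL-KD vs Control and no other. Counts of the position and partner lists without CTCFL-KD replicate 1, with DESeq2 and with the block were added after seeing the data. In all, 358 of 399 single values kept direction and side of the threshold.

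For CTCFL-OE vs Control, 1 gene was called with only the 2 groups compared, and 0 to 3 when each library was left out. Over all genes the main count of 561 became 1373 with DESeq2, 1517 with no filter, 1403 with the length trend removed, 1109 with the block and the length trend, 3450 with the 2 groups alone, and 44 to 5041 with a library left out. It was 5041 without CTCFL-KD replicate 1, 2780 without CTCFL-OE replicate 1, 44 to 61 without any 1 Control library, and 79 and 117 without CTCFL-OE replicates 2 and 3. For CTCFL-KD vs Control, 3 to 5 of the genes were called with a library left out. For CTCFL-KD vs CTCFL-OE, 2667 genes were called in place of 4771 with the 2 groups alone, and 3180 (without CTCFL-OE replicate 2) to 7296 (without CTCFL-KD replicate 1) with a library left out. The cause of these shifts was not tested.

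Values near 0 changed sign. AKT2 in CTCFL-OE was 0.0049 on the log2 scale with RLE scaling (the size factors of DESeq2), 0.047 with upper-quartile scaling, 0.0149 with a minimum of 10 counts and 0.0337 with the 2 groups alone, and -0.038 to 0.0239 with a library left out. CCNE1 in CTCFL-KD was 0.0013 with upper-quartile scaling and -0.233 to 0.1039 with a library left out. Against CTCFL-OE it was -0.0288 with no filter, -0.1312 with the length trend removed, -0.1327 with the block as well and -0.1662 to 0.1772 with a library left out. In the same way POP4 in CTCFL-KD ranged from -0.0369 to 0.3333, and UQCRFS1 in CTCFL-KD vs CTCFL-OE from -0.0301 to 0.3907.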
